A study of Homo sapiens with 6 samples.

Results

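The genes described here are the protein-coding genes of the short arm of chromosome 2 (2p) that were expressed at a moderate to high level in SW480 cells, a line derived from a human colorectal adenocarcinoma. A gene was selected on its level, a mean of at least 16 CPM (a read count divided by the total of its library, on one scale for all libraries) over 6 libraries, and on its place on the arm in the GRCh37 genome. Of 462 protein-coding genes listed on 2p, 244 reached that level, and EPAS1, RRM2, HK2, EPCAM, TGFA and EIF2AK2 were left out by name, which gave 238 members among the 63677 identifiers of the tables. CMPK2 (0.752 CPM) and RSAD2 (0.126 CPM), also left out by name, lay below the level, and LTBP2 lies on 14q. CHAC2 lay just outside the level at 15.98 CPM and C1D just inside it at 16.29 CPM. The members' mean level ran from 16.3 to 1072 CPM with a median of 59.4 CPM, and they spanned chr2:264140-89050446.

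The cells carried a doxycycline-inducible lentiviral vector for either POU5F1B, a retrotransposed copy of the pluripotency factor gene POU5F1, or green fluorescent protein (GFP) as the control. Both groups were exposed to 1 µg/mL doxycycline for 72 h, and each had 3 libraries, called replicates 1 to 3 as in their titles. The comparison asked what changed in the RNA of colorectal cancer cells when POU5F1B was produced. Both vectors were expressed from transduced populations of 1 line, no parental cells were among the samples, and nothing in the labels says whether the replicates were separate cultures, so p-values measure only the spread between these libraries. The choice of 2p followed differences seen in these same data, so the levels of the members as a group are given as a description, with no test over the group.

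Neighbouring genes on a chromosome arm do not, as a rule, share a pathway or a regulator, and what they do share is the number of copies of the arm and, in part, base composition and chromatin environment. DNA copy number was not measured in these libraries. The members of 2p include genes for cytosolic chaperonin subunits, ribosomal proteins, DNA repair factors, splicing factors and small GTPases, which differ in function and in regulation.

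Library depth ranged from 10767947 to 12787637 counts, and 3 counts, the floor used here, corresponded to 0.235 to 0.279 CPM. POU5F1B was counted 6, 5 and 1 times in GFP replicates 1, 2 and 3 and 15027, 11393 and 1458 times in POU5F1B replicates 1, 2 and 3, so the labels held in every library, and the level in POU5F1B replicate 3 was lower than in the other two. GFP replicate 3 stood apart from GFP replicates 1 and 2 over the whole table: 12.2% of the 14286 genes tested lay more than 2-fold above them and 9.68% more than 2-fold below, whereas the same shares for POU5F1B replicate 3 were 3.68% and 2.09%. All 7 colon epithelium markers were detected in every library, with a summed level of 6352 to 9544 CPM, most of it KRT8 and KRT18. Single markers differed between libraries: CDH1, the epithelial cadherin, was at 33.6, 30.1 and 72.5 CPM in GFP and 164, 158 and 98.1 CPM in POU5F1B replicates 1, 2 and 3, VIL1 was at 23.04, 14.0 and 210 CPM against 42.6, 37.6 and 111 CPM, and CDX2 at 27.7, 19.5 and 33.0 CPM against 16.3, 14.6 and 36.95 CPM. Of 9 markers of blood cells, endothelium and fibroblasts, 4 were under 1 CPM in every library, PTPRC was at 0 in 5 libraries, DCN and LUM were at 0 in 4, and the summed level was 151 and 126 CPM in GFP replicates 1 and 2, 22.9 CPM in GFP replicate 3 and 12.6 to 17.0 CPM in POU5F1B cells. Most of the sum in GFP cells was COL1A1, a collagen chain, which had 1681, 1553 and 194 counts in GFP replicates 1, 2 and 3 and 86, 60 and 114 counts in POU5F1B replicates 1, 2 and 3. COL1A1, CDH1 and VIL1 set GFP replicates 1 and 2 apart from the other libraries, as the 2p pattern described next did. EPCAM, a 2p gene left out by name, did so too, at 86.6, 89.3 and 517 CPM in GFP and 320, 330 and 252 CPM in POU5F1B cells. KRT19, KRT18 and KRT8 were also lowest in GFP replicates 1 and 2, KRT8 by a narrow margin. CDX2, lowest in POU5F1B replicates 1 and 2, and DCN and LUM, counted only in the replicate 3 libraries, did not split the libraries this way. The part of these markers in the 2p pattern was not tested. In bulk RNA, a smaller share of cells and less RNA per cell cannot be told apart.

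Genes of 2p were lower in GFP replicates 1 and 2 than in the other 4 libraries. The members summed to 21660 CPM in GFP replicate 1, 21420 in GFP replicate 2 and 31200 in GFP replicate 3, and to 27860, 29400 and 27320 CPM in POU5F1B replicates 1, 2 and 3. They took 2.17%, 2.20% and 2.91% of all counts in GFP and 2.81%, 2.95% and 2.81% in POU5F1B replicates 1, 2 and 3. GFP replicate 3 thus lay with the POU5F1B libraries on this arm, and the GFP group as a whole overlapped them. The same split held gene by gene: in 158 of 238 members (66.4%) the lowest and second lowest values both came from GFP replicates 1 and 2, compared with 20.3% of protein-coding genes of the same level elsewhere in the genome. The lowest of the 6 values was found in GFP replicate 1 for 99 members and in GFP replicate 2 for 88, and the highest was found in GFP replicate 3 for 112.

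Relative to all 8255 protein-coding genes of the same level, the members' median log2 level (each gene centred on its mean over 6 libraries) was -0.27 and -0.28 in GFP replicates 1 and 2. It was 0.17 in GFP replicate 3 and 0.10, 0.17 and 0.08 in POU5F1B replicates 1, 2 and 3. After a correction for GC content and exon length, added once the data had been seen, the values were -0.25, -0.26 and 0.07 for GFP and 0.14, 0.14 and 0.13 for POU5F1B, so the 3 POU5F1B libraries drew together and GFP replicate 3 stayed on their side of 0. This did not hold along the whole arm: the corrected value of GFP replicate 3 was -0.03 at 30 to 40 Mb and -0.05 at 40 to 50 Mb.

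**Figure D1:**
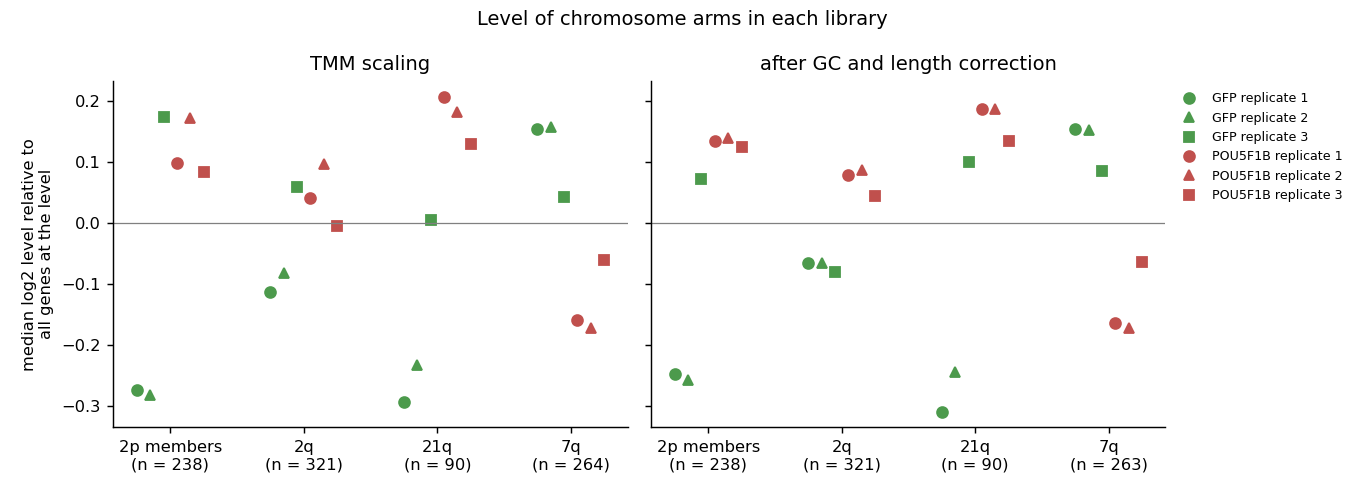
Median log2 level of the genes of 4 chromosome arms in each library, relative to all protein-coding genes of the same level, with TMM scaling (left) and after the GC and length correction (right); each point is 1 library, n the number of genes. On 2p, GFP replicates 1 and 2 lie near -0.27 (left) and -0.25 (right) while the other 4 libraries lie above 0.

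Comparing POU5F1B with GFP cells over all 6 libraries, 191 of 238 members (80.3%) had a log2 fold change above 0, compared with 46.9% of all genes tested, and the members' median was 0.23 against -0.02 over all genes tested (limma voom). No member, and no gene in the table, passed an adjusted p of 0.05 with a change over 2-fold (0.0% of 14286 genes), and the members' adjusted p ran from 0.185 to 0.997. At an unadjusted p below 0.05, 48 members were higher in POU5F1B cells (20.2%, background 6.07%) and 2 were lower (0.840%, background 5.82%). With edgeR's quasi-likelihood test 0 members and 0 of the 14286 genes were called. At an unadjusted p below 0.05 that test found 48 members and 1720 genes. With DESeq2 2 members (LBH and FEZ2) and 232 of the 14286 genes were called, a smaller share of the members than of all genes. At an unadjusted p below 0.05 DESeq2 found 53 members and 1934 genes. Without the fold limit DESeq2 gave an adjusted p below 0.05 to 9 members higher in POU5F1B cells (3.78%, background 1.3%) and to 1 lower (background 1.58%). These were ADCY3, QPCT, RHOB, LPIN1, RTN4, SLC1A4, RNASEH1, POLE4 and LBH, and FEZ2. All 3 POU5F1B libraries lay above all 3 GFP libraries for 60 members (25.2%, background 10.2%), and below them for 4 (background 9.21%), which were KIDINS220, FEZ2, TIA1 and TMSB10.

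These counts depended on single libraries. Without GFP replicate 3, 155 members were higher and 7 lower at an unadjusted p below 0.05. In that fit 2 members (FEZ2 and ANTXR1) and 595 of all 14286 genes tested passed the full threshold. That was a smaller share of the members than of all genes. Without GFP replicate 1 or 2 the higher count was 21 or 15, and without POU5F1B replicate 1 or 2 it was 14 or 19. These counts at an unadjusted p were not set beside the same counts over all genes. The members' median log2 fold change was 0.42 without GFP replicate 3 and between 0.16 and 0.24 when any other library was left out.

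Taken by replicate number, the difference between POU5F1B and GFP cells was 0.40 (median log2 over members) in pair 1 and 0.50 in pair 2, with 213 and 212 of 238 members above 0. In pair 3 it was -0.09, with 98 members above 0, and this sign turned to 0.05 when libraries were scaled to total counts and to 0.03 after the GC and length correction. The SD of the 3 pair medians was 0.32. Over all genes of the same level the medians were 0.02, 0.04 and -0.01. The mean of pairs 1 and 2 had a median of 0.47 over members, a 1.38-fold difference, with the middle 50% of members between 0.25 and 0.59. Only 7 members differed by more than 2-fold there, against 213 members above 0. Across members the differences of pairs 1 and 2, which share no library, had a Pearson r of 0.88 (n = 238 genes, which share base composition and arm and are not independent).

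A fit limited to replicates 1 and 2 of both groups, a split that followed earlier results of these data, found 157 members (66.0%) higher at an adjusted p below 0.05 (background 14.1%) and 6 lower (background 15.5%; limma voom, 2 libraries against 2). Past 2-fold as well, 4 members were higher (LBH, QPCT, FOXN2 and ANTXR1; background 3.21%) and 3 lower (TRIB2, LTBP1 and FEZ2; background 5.15%). Those backgrounds include genes of low level. Among the 8255 protein-coding genes of the members' level, the mean of pairs 1 and 2 was more than 2-fold higher for 113 and more than 2-fold lower for 205, beside 4 and 3 of the 238 members. FOXN2 was named after its values were seen.

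In replicates 1 and 2 the difference was spread along the whole arm. In 10 Mb windows from the tip of the arm toward the centromere, the medians of pairs 1 and 2 were 0.45, 0.56, 0.37, 0.46, 0.53, 0.57, 0.53, 0.45 and 0.40. The 6 windows with 20 or more members ran from 0.37 to 0.53, and the members above 0 ranged from 19 of 24 at 80 to 90 Mb to 20 of 20 at 40 to 50 Mb. A running median over 15 consecutive members stayed above 0 throughout, with its lowest value of 0.11 from RHOB to DTNB (chr2:20646835-25896516) and its highest of 0.58 from SOCS5 to MTIF2 (chr2:46926091-55496483). Differences of adjacent members were nearly unrelated (Pearson r = 0.09 over 237 neighbouring pairs).

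**Figure D2:**
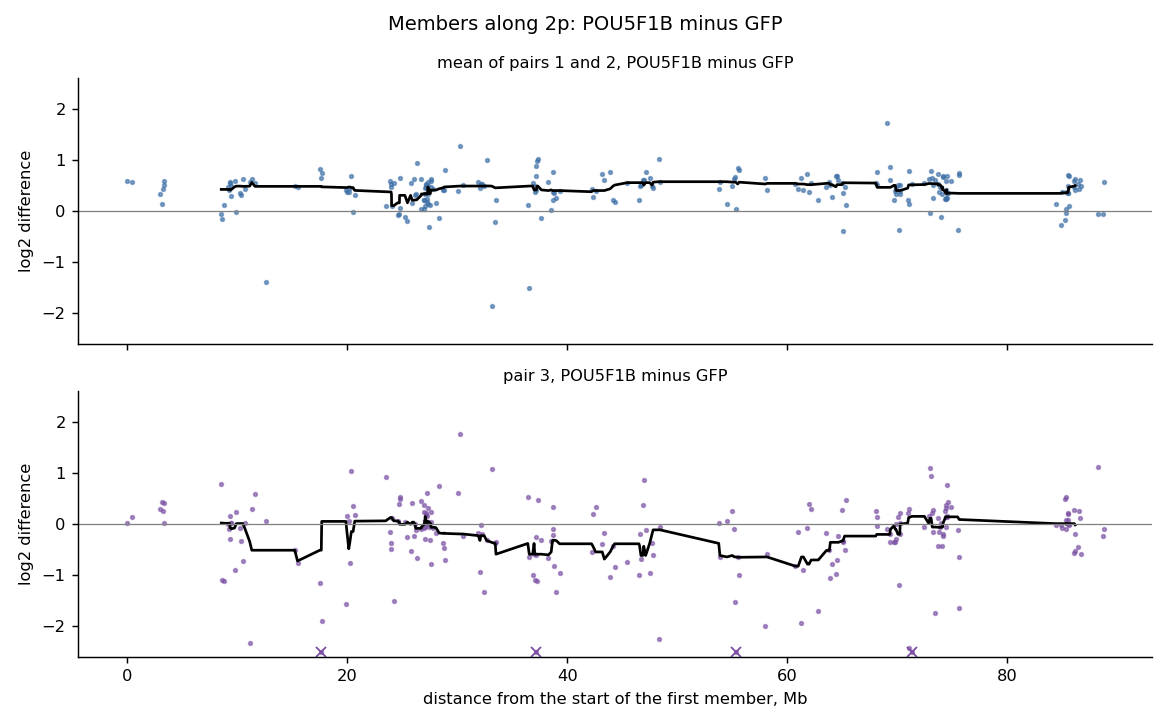
POU5F1B minus GFP (log2 CPM) for each of the 238 members by distance along 2p, as the mean of pairs 1 and 2 (top) and for pair 3 (bottom); points are genes, crosses are genes beyond the axis limits, and the black line is the running median over 15 members. The line stays above 0 along the whole arm in pairs 1 and 2 and dips to -0.82 between RPS27A and EHBP1 in pair 3.

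Pair 3 was uneven along the arm. Its window medians were near 0 at 0 to 10 Mb (0.02), 20 to 30 Mb (0.02), 70 to 80 Mb (0.02) and 80 to 90 Mb (-0.01). They were -0.51 at 10 to 20 Mb, -0.32 at 30 to 40 Mb, -0.41 at 40 to 50 Mb, -0.64 at 50 to 60 Mb and -0.33 at 60 to 70 Mb. These last 5 windows were richer in AT: the median exonic GC content of their members was 40.3% to 43.3%, and that of the 4 others was 44.9% to 49.8%. After the GC and length correction the 9 window medians of pair 3 lay between -0.20 and 0.20, and those of pairs 1 and 2 between 0.34 and 0.57.

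Both replicate 3 libraries were then compared with replicates 1 and 2 of their own group, 1 library against a pair, which allows no test. GFP replicate 3 lay above GFP replicates 1 and 2 by a median of 0.51 on the log2 scale over members (1.43-fold), with 193 of 238 above 0, compared with 0.06 over all genes of the same level. Against POU5F1B replicates 1 and 2, POU5F1B replicate 3 had a median of -0.07, with 88 of 238 above 0, compared with -0.01 over all genes. Both libraries lay above their pair for 71 members and below it for 28, whereas 122 members were up in GFP replicate 3 and down in POU5F1B replicate 3, and 17 the reverse. The shifts of the 2 libraries had a Pearson r of -0.08 across the 238 members and 0.15 across all 8255 genes.

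GFP replicate 3 was more than 2-fold above its pair for 55 members (background 12.2%) and below it for 4 (background 9.68%), which were FOSL2, LBH, LTBP1 and THNSL2. POU5F1B replicate 3 was more than 2-fold above its pair for TRIB2 and LTBP1 (background 3.68%) and below it for FOXN2 (background 2.09%). These backgrounds include genes of low level. Among the 8255 protein-coding genes of the members' level, GFP replicate 3 was more than 2-fold above its pair for 863 and below it for 442. For POU5F1B replicate 3 those counts were 117 and 60. FOSL2 and THNSL2 were named after their values were seen.

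The GFP replicate 3 shift varied with position and with base composition. Window medians ran from 0.31 at 80 to 90 Mb to 1.20 at 50 to 60 Mb, and from 0.31 to 0.77 over the 6 windows with 20 or more members. The running median reached 1.20 from RPS27A to EHBP1 (chr2:55459039-63273622) and fell to 0.03 from DOK1 to GGCX (chr2:74776153-85788655). Adjacent members moved together more than in pairs 1 and 2 (r = 0.33 over 237 neighbouring pairs). Among the 80 members of lowest GC content (34.3% to 41.6%) the median shift of GFP replicate 3 was 0.89, among the middle 79 it was 0.58 and among the 79 of highest GC content (47.9% to 63.1%) it was 0.14. The Spearman rho of the shift with GC content was -0.55 over members and -0.49 over all 8255 genes, a relation that 2p shared with the rest of the genome. With the GC and length correction the arm median of this shift was 0.34, 177 members lay above 0, and the window medians ran from 0.10 to 0.73.

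**Figure D3:**
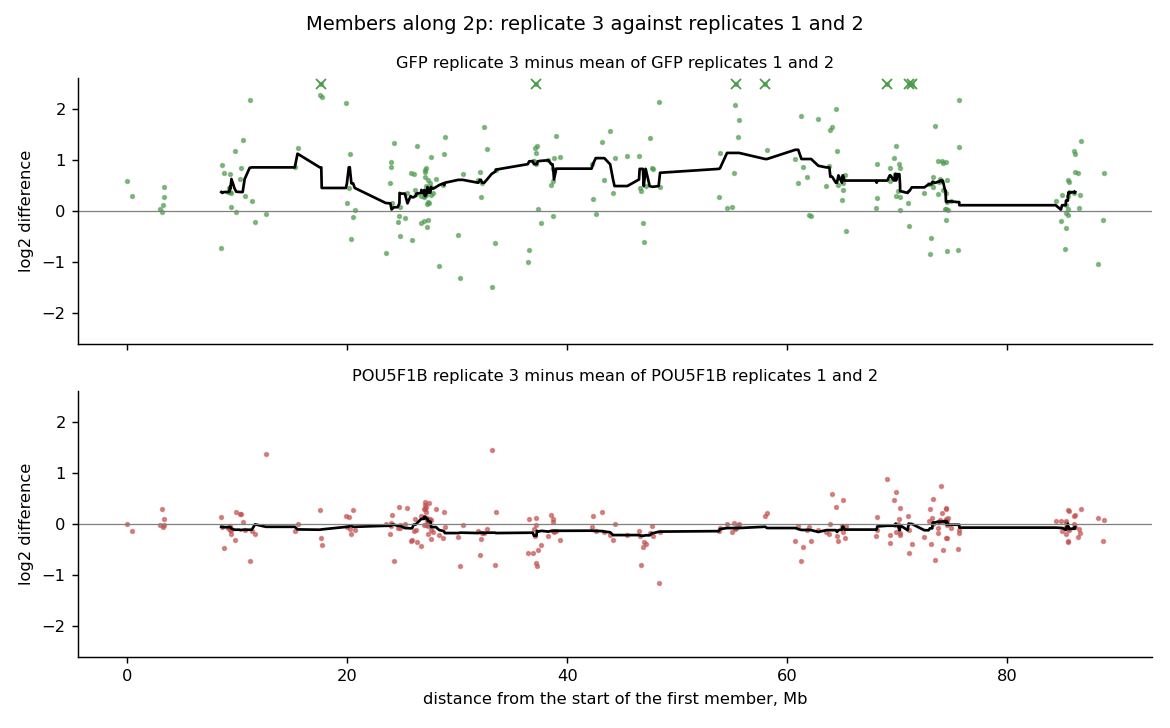
Replicate 3 minus the mean of replicates 1 and 2 (log2 CPM) of the same group for each member by distance along 2p, for GFP (top) and POU5F1B (bottom); points are genes, crosses are genes beyond the axis limits, and the black line is the running median over 15 members. The GFP line runs between 0.03 and 1.20 and the POU5F1B line between -0.23 and 0.14.

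Most of the members named as the most abundant of their 10 Mb window, which differ in function, shared the pattern. CRIM1 at 30 to 40 Mb and TMSB10 at 80 to 90 Mb, also named by that rule, did not, and their values are given below. RPS7, a protein of the small ribosomal subunit at the tip of the arm, was at 649, 684 and 929 CPM in GFP replicates 1, 2 and 3 and at 894, 1014 and 940 CPM in POU5F1B replicates 1, 2 and 3. RPS27A, which encodes ubiquitin fused to a ribosomal protein, was at 570, 610 and 992 CPM in GFP and 845, 986 and 923 CPM in POU5F1B cells. CCT4, a subunit of the cytosolic chaperonin, was at 426, 416 and 671 CPM in GFP and 662, 727 and 641 CPM in POU5F1B cells. In all 3 genes GFP replicates 1 and 2 were lowest and GFP replicate 3 lay within or next to the range of the POU5F1B libraries.

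CCT7, another chaperonin subunit, further toward the centromere, was at 586, 573 and 918 CPM in GFP and 808, 847 and 830 CPM in POU5F1B cells. PPM1G, a nuclear protein phosphatase, was at 335, 328 and 450.0 CPM in GFP and 455, 480 and 455 CPM in POU5F1B cells, so its groups did not overlap, by a narrow margin. CALM2, a calmodulin gene, was at 473, 437 and 639 CPM in GFP and 715, 840 and 591 CPM in POU5F1B cells. The fold changes over 6 libraries of these 6 abundant genes, 0.30 to 0.47 on the log2 scale, had adjusted p from 0.394 to 0.579 (limma voom), and in replicates 1 and 2 alone they were 0.48 to 0.75 with adjusted p from 1.99e-05 to 0.000332.

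**Figure D4:**
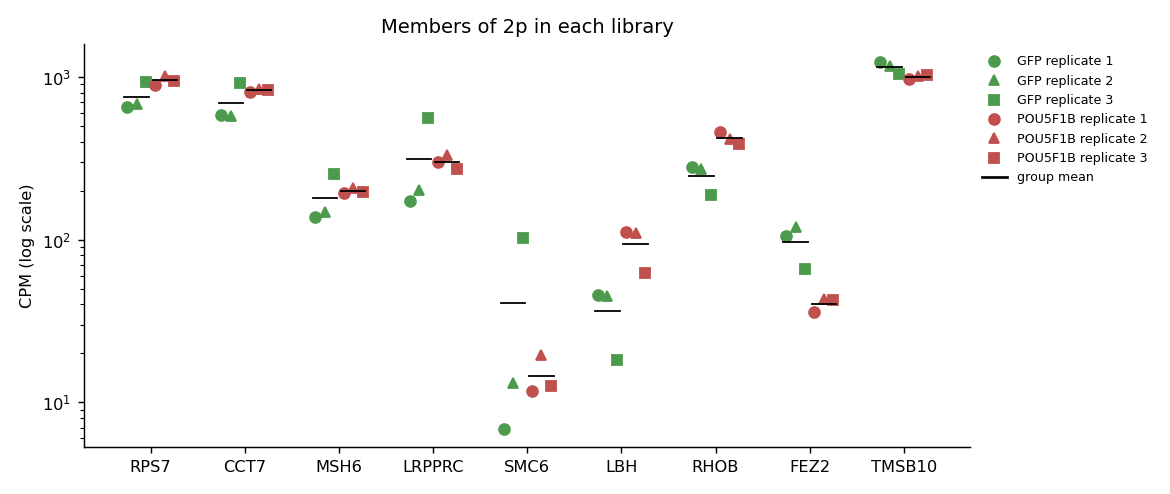
CPM (log scale) of 9 members in each library; green is GFP, red is POU5F1B, circles, triangles and squares are replicates 1, 2 and 3, and lines are group means. RPS7 and CCT7 are lowest in GFP replicates 1 and 2, SMC6 is high in GFP replicate 3 alone, and the groups do not overlap for LBH, RHOB, FEZ2 and TMSB10.

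The 7 DNA repair and replication genes had a median log2 difference of 0.59 in replicates 1 and 2, with 7 of 7 above 0 and 5 past an adjusted p of 0.05 (limma voom), and 0.09 over all 6 libraries. In the same fit of replicates 1 and 2, 157 of all 238 members (66.0%) and 14.1% of all genes tested were higher at that threshold. MSH6, a DNA mismatch recognition protein, was at 137, 148 and 254 CPM in GFP and 192, 209 and 196 CPM in POU5F1B cells, so GFP held both the highest and the lowest values. Over 6 libraries its log2 fold change was 0.20 ± 0.23 (SE, adjusted p = 0.763), and in replicates 1 and 2 it was 0.48 ± 0.09 (adjusted p = 0.00126, limma voom). POLE4, a small subunit of DNA polymerase epsilon, was at 34.9, 31.0 and 37.5 CPM in GFP and 47.3, 52.7 and 47.3 CPM in POU5F1B cells, with no overlap. Exons of 15 of the 38 members named by rule overlap an annotated gene on the opposite strand, and the strand setting of the counting was not stated, so their counts are uncertain by an unknown share. These are ADCY3, LPIN1, TMSB10, CEP68, LTBP1, CDC42EP3, PELI1, RASGRP3, CRIM1, RAB11FIP5, MSH6, XPO1, LRPPRC, RPS27A and CCT4.

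The 19 RNA processing genes showed the widest gap between the pairs, with a median of 0.51 in replicates 1 and 2 (17 of 19 above 0, 15 higher and 1 lower at an adjusted p below 0.05) and -0.70 in pair 3. Their median shift in GFP replicate 3 was 0.93. The DNA repair and replication genes had a gap nearly as wide, with 0.59 in replicates 1 and 2 and -0.58 in pair 3. The median GFP replicate 3 shift of those genes was larger, at 1.20. In replicates 1 and 2, 66.0% of all members and 14.1% of all genes tested were higher at an adjusted p below 0.05 (limma voom). SRSF7, a splicing factor of the serine and arginine rich family, was at 186, 165 and 262 CPM in GFP and 226, 229 and 246 CPM in POU5F1B cells. TIA1, an RNA-binding protein of stress granules, went the other way, at 33.8, 36.0 and 66.1 CPM in GFP and 24.8, 28.9 and 28.7 CPM in POU5F1B cells, with a log2 fold change of -0.65 ± 0.28 (SE; unadjusted p = 0.0570, adjusted p = 0.430, limma voom). CEBPZ, a factor in ribosome assembly that was named after its values were seen, was at 24.6, 35.1 and 241 CPM in GFP and 43.97, 66.3 and 31.9 CPM in POU5F1B cells.

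Values far above all other libraries in GFP replicate 3 were not limited to 1 function. SMC6, a subunit of a structural maintenance complex in DNA repair, was at 6.90, 13.2 and 102 CPM in GFP and 11.7, 19.4 and 12.5 CPM in POU5F1B cells. CCDC88A, an actin-binding signalling protein, was at 8.41, 15.1 and 116 CPM in GFP and 10.1, 13.5 and 11.0 CPM in POU5F1B cells. Both were named after their values were seen, and their GC contents were 37.95% and 36.5%. Pair 3 was more than 2-fold lower in POU5F1B cells for 26 members (10.9%, background 10.4%) and more than 2-fold higher for 5 (2.101%, background 5.79%). The first share was close to that of all genes tested, which include genes of low level. Among the 8255 protein-coding genes of the members' level, pair 3 was more than 2-fold lower for 771 and more than 2-fold higher for 160. Neither count set the members apart from genes of their level.

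The 18 genes of the mitochondrial protein list had a median of 0.41 in replicates 1 and 2 (17 of 18 above 0, 14 past an adjusted p of 0.05 and 0 lower; limma voom) and of -0.14 in pair 3. LRPPRC, which stabilises mitochondrial messenger RNA, was at 172, 203 and 557 CPM in GFP and 301, 331 and 272 CPM in POU5F1B cells. The 13 genes of the translation list had a median of 0.50 in replicates 1 and 2, with 12 above 0. All 18 protein folding and turnover genes were above 0 there, with a median of 0.45 and 15 past an adjusted p of 0.05. The 22 genes of the membrane traffic list had a median of 0.44 with 21 above 0, and the 24 metabolic enzymes and transporters had 0.47 with 24 above 0. Over all genes tested the median was -0.005, 49.5% were above 0 and 14.1% were higher at an adjusted p below 0.05. Of all 238 members 66.0% were higher at that threshold, and no list had more than 2 members lower at it.

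Signalling genes, like RNA processing and cytoskeleton genes, held members past an adjusted p of 0.05 in each direction in replicates 1 and 2 (limma voom). Of 23 signalling genes 19 were above 0 in replicates 1 and 2 (median 0.40, 10 higher and 2 lower at an adjusted p below 0.05), and over 6 libraries the median was 0.01 with 12 above 0. SOS1, the exchange factor that activates RAS, was at 27.8, 36.0 and 87.7 CPM in GFP and 35.8, 40.4 and 34.8 CPM in POU5F1B cells. XPO1, the main nuclear export receptor, was at 366, 358 and 655 CPM in GFP and 465, 494 and 354 CPM in POU5F1B cells, and its log2 fold change of -0.03 turned to 0.01 with scaling to total counts. Of 12 cytoskeleton genes 11 were above 0 in replicates 1 and 2 with a median of 0.40, 6 higher and 1 lower at an adjusted p below 0.05. The 19 chromatin and transcription genes had a median of 0.39 with 13 above 0. Of all 238 members 66.0% were higher at an adjusted p below 0.05 in replicates 1 and 2 (limma voom), and no difference between lists was tested.

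In all 3 pairs 82 members (34.5%) were above 0, compared with 19.0% of all genes of the same level, and 10 were below 0 in each pair, compared with 17.5% of all genes of the same level. ADCY3, an adenylate cyclase, was at 168, 153 and 169 CPM in GFP and 268, 238 and 238 CPM in POU5F1B cells, a log2 change of 0.60 ± 0.11 (SE, n = 3 per group) with the lowest adjusted p of the members, 0.185 in limma voom and 0.000393 in DESeq2. ADCY3 overlaps CENPO on the opposite strand, so part of its counts could belong to that gene. QPCT, glutaminyl-peptide cyclotransferase, was at 99.9, 101 and 104 CPM in GFP and 190, 219 and 143 CPM in POU5F1B cells. RTN4, a reticulon that shapes the endoplasmic reticulum, was at 169, 173 and 181 CPM in GFP and 236, 244 and 217 CPM in POU5F1B cells. For these 3 genes GFP replicate 3 lay at the level of GFP replicates 1 and 2, unlike the arm as a whole.

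LPIN1, a phosphatidate phosphatase, averaged 34.6 ± 3.16 CPM (SD, n = 3) in GFP libraries and 51.4 ± 3.74 CPM in POU5F1B libraries (adjusted p = 0.236, limma voom). SLC1A4, a neutral amino acid transporter, averaged 59.0 ± 5.48 CPM in GFP libraries and 81.3 ± 2.45 CPM in POU5F1B libraries (adjusted p = 0.243, limma voom). RNASEH1, which degrades RNA in RNA-DNA hybrids, had 34.7 ± 3.97 and 50.1 ± 2.91 CPM (adjusted p = 0.255, limma voom). The 3 genes did not overlap between groups, and with DESeq2 their adjusted p ran from 0.0233 to 0.0283.

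The member with the highest log2 fold change over 6 libraries was LBH, a transcriptional cofactor in the WNT pathway (chr2:30454400-30546596, plus strand). LBH was at 45.9, 45.3 and 18.3 CPM in GFP and 111, 109 and 62.4 CPM in POU5F1B cells, so it was lower in replicate 3 of both groups and did not overlap between them. Its log2 fold change was 1.42 ± 0.40 (adjusted p = 0.285, limma voom), and it was 1.26 ± 0.10 in replicates 1 and 2 (adjusted p = 2.26e-06). With DESeq2 the adjusted p over 6 libraries was 0.0412. RHOB, a small GTPase of endosomes and the actin cytoskeleton (chr2:20646835-20649201, plus strand), was at 278, 270 and 189 CPM in GFP and 461, 418 and 386 CPM in POU5F1B cells. Its log2 fold change was 0.80 ± 0.17 (adjusted p = 0.207 in limma voom and 0.0191 in DESeq2), with pair differences of 0.73, 0.63 and 1.03.

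FEZ2, an adaptor protein of the kinesin transport system (chr2:36758948-36873230, minus strand), ran against the arm. It was at 105, 119 and 66.3 CPM in GFP and 35.6, 43.3 and 42.4 CPM in POU5F1B cells, with no overlap, and its log2 fold change was -1.23 ± 0.25 (adjusted p = 0.207, limma voom). In DESeq2 its adjusted p was 0.000649. TRIB2, a pseudokinase, was at 75.1, 72.5 and 70.5 CPM in GFP and 27.8, 28.5 and 73.2 CPM in POU5F1B cells, so POU5F1B replicate 3 lay with the GFP libraries. LTBP1, a latent TGF-beta binding protein, was at 36.6, 26.7 and 11.0 CPM in GFP and 10.6, 6.85 and 23.5 CPM in POU5F1B cells, which reversed its direction between pairs 1 and 2 and pair 3.

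TMSB10, an actin-sequestering thymosin and the most abundant member, was at 1228, 1158 and 1039 CPM in GFP and 972, 1006 and 1026 CPM in POU5F1B cells. No overlap was left between the groups, but GFP replicate 3 and POU5F1B replicate 3 were only 0.02 apart on the log2 scale. KIDINS220, a scaffold of neurotrophin receptors, was at 47.0, 49.6 and 89.9 CPM in GFP and 40.8, 46.7 and 41.8 CPM in POU5F1B cells. CEP68, a centrosome protein, had a log2 fold change of -0.37 ± 0.20 and CDC42EP3, a CDC42 effector, one of -0.20 ± 0.15 (adjusted p = 0.520 and 0.639, limma voom). CDC42EP3 turned to 0.01 after the GC and length correction.

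Among the 71 members that lay above their pair in both replicate 3 libraries, 5 were named for the size of the shift. ANTXR1, an anthrax toxin receptor that binds collagen, was at 9.67, 7.83 and 57.7 CPM in GFP and 29.7, 28.6 and 53.8 CPM in POU5F1B cells, so both replicate 3 libraries were highest. MXD1, a MYC antagonist, was at 12.5, 11.6 and 29.3 CPM in GFP and 15.9, 14.7 and 23.8 CPM in POU5F1B cells. TET3, which oxidises 5-methylcytosine, was at 37.9, 38.6 and 58.0 CPM in GFP and 37.3, 33.1 and 58.8 CPM in POU5F1B cells. PELI1, a ubiquitin ligase, and ANXA4, an annexin, had replicate 3 shifts of 1.66 and 1.04 (log2) in GFP and of 0.59 and 0.47 in POU5F1B cells.

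LBH was lower in both replicate 3 libraries, with log2 shifts of -1.31 in GFP and -0.82 in POU5F1B cells. CRIM1, a transmembrane regulator of bone morphogenetic proteins, was at 281, 291 and 143 CPM in GFP and 304, 315 and 208 CPM in POU5F1B cells. RASGRP3, an activator of RAS and RAP GTPases, was at 23.1, 21.4 and 14.3 CPM in GFP and 17.8, 20.8 and 11.0 CPM in POU5F1B cells. EVA1A, an autophagy regulator, had shifts of -0.76 in GFP and -0.49 in POU5F1B cells, and RAB11FIP5, an effector of the RAB11 recycling pathway, had shifts of -0.53 and -0.39. ODC1, the rate-limiting enzyme of polyamine synthesis, was at 469, 453 and 830 CPM in GFP and 564, 586 and 656 CPM in POU5F1B cells.

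The sequences just before the transcription start are printed for LBH, FEZ2 and RHOB, the members with the highest and the lowest log2 fold change over 6 libraries and a member that was higher in all 3 pairs. They come from RefSeq promoter windows (GRCh38.p14) and each 120-base stretch was located by an exact and single match in GRCh37, at chr2:30454280-30454399 on the plus strand, chr2:36825312-36825431 on the minus strand and chr2:20646715-20646834 on the plus strand. Capitals mark the GC box (GGGCGG), the CCAAT box (CCAAT) and the TATA box (TATAAA) on either strand.
LBH: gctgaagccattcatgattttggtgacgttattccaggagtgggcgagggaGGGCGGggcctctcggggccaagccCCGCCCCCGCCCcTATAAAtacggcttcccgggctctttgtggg
FEZ2: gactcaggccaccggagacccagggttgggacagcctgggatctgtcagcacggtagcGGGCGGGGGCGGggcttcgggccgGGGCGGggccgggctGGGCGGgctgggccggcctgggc
RHOB: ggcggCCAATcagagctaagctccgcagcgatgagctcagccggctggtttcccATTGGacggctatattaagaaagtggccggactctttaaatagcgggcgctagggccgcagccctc
The LBH stretch held 3 GC boxes and 1 TATA box, the FEZ2 stretch 4 GC boxes, and the RHOB stretch 2 CCAAT boxes, 1 on each strand. The GENCODE gene model of FEZ2 begins further upstream than this RefSeq start.

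Of the 238 members, 213 matched a 300-base window of the RefSeq table (250 bases before the start and 50 after). A GC box was found in 74.6% of these and in 58.5% of all 15843 protein-coding windows, a CCAAT box in 35.7% and 36.4%, and a TATA box in 3.29% and 9.63%. The median number of CG dinucleotides was 28 per member window and 22 over all windows. Members were selected on level and the other windows were not, and no test was made of these shares.

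Among 41 chromosome arms, 2p (244 genes, none left out) had the next to highest median of pairs 1 and 2, with 0.47, after 21q with 0.51 (90 genes). Next came 7p with 0.28 (148 genes) and 2q with 0.21 (321 genes), and 7q was lowest with -0.32 (264 genes). With the GC and length correction 2p kept that rank, at 0.45. By the shift of GFP replicate 3, 2p ranked 3 of 41 with 0.52, after 18q with 0.90 and 4q with 0.56, and with the correction it ranked 4 of 41 with 0.35. Pairs 1 and 2 and the GFP replicate 3 shift share GFP replicates 1 and 2, so their ranks are not independent of each other.

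**Figure D5:**
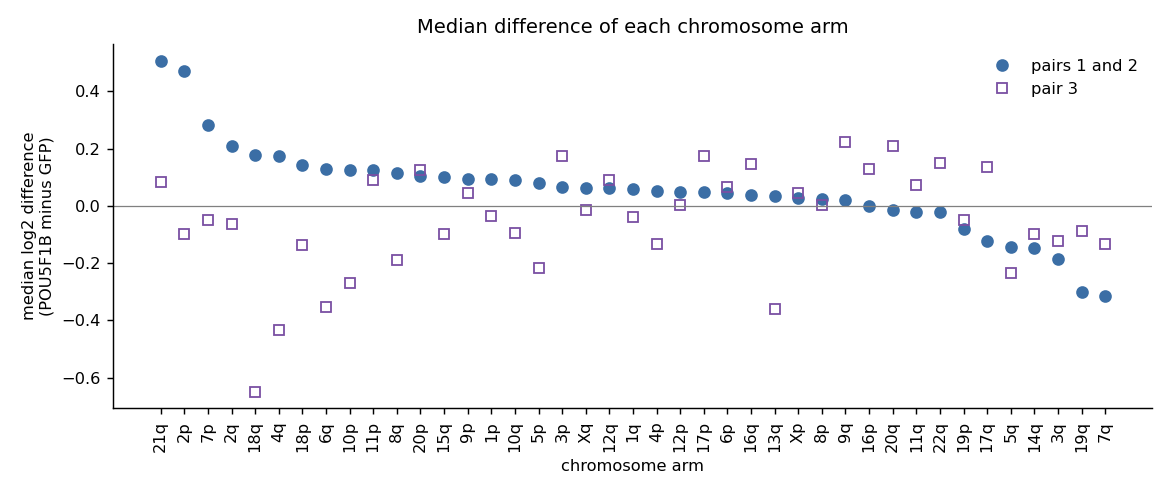
Median log2 difference between POU5F1B and GFP over the genes of each of 41 chromosome arms, as the mean of pairs 1 and 2 (filled circles) and in pair 3 (open squares), ordered by pairs 1 and 2. The arm 2p stands next to 21q at 0.47 in pairs 1 and 2 and lies at -0.10 in pair 3.

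On the long arm the first window past the centromere, at 90 to 100 Mb (25 genes), had a median of 0.16 in pairs 1 and 2 with 17 above 0, below the 0.40 of the last window of 2p. Higher medians returned beyond it. With that window included, the 104 genes between 90 and 140 Mb had a median of 0.48, with 87 above 0, whereas the 217 genes beyond 140 Mb had a median of 0.11, with 143 above 0. The boundary of 140 Mb was set after the values were seen. From 100 to 140 Mb the 4 window medians were 0.48, 0.83, 0.51 and 0.42, and past 140 Mb they ran from -0.11 to 0.28. For GFP replicate 3 the median was 0.22 on the nearer and 0.13 on the farther stretch. Over 2q as a whole the place of GFP replicate 3 depended on the scale. Its relative level was 0.06 with TMM scaling, among the POU5F1B libraries (0.04, 0.10 and -0.005) and above GFP replicates 1 and 2 (-0.11 and -0.08), but -0.08 after the GC and length correction, beside -0.07 in both GFP replicates 1 and 2 and 0.08, 0.09 and 0.04 in POU5F1B cells.

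Genes of 2p that the level excluded had the same direction. The 59 protein-coding genes of 4 to 16 CPM had a median of 0.38 in pairs 1 and 2 with 46 above 0, compared with -0.01 over 2450 genes of that level elsewhere. The 20 genes of 2p without a protein-coding annotation and with at least 4 CPM had a median of 0.24 with 14 above 0, compared with -0.02 over 586 elsewhere. In GFP replicate 3 the medians of the 59 and the 20 genes were both 0.41.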

How the data were processed

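Polyadenylated RNA of SW480 cells was sequenced from stranded libraries. The authors deposited whole-number counts per Ensembl gene, 1 table per library, without normalization; per the labels and the study's methods, reads were mapped to hg19 with HISAT2 and uniquely mapped reads were counted with featureCounts. The strand setting and annotation release were not given in the sources used here. Groups came from the titles. Counts were scaled by TMM (edgeR 4.0.16), filtered by filterByExpr (14286 genes tested) and fitted with limma voom 3.58.1 (R 4.3.3), two-sided with Benjamini-Hochberg adjustment over all genes tested. DESeq2 1.42.0 and edgeR's quasi-likelihood test were alternatives. The fits were tested on simulated data. Per-library log2 values are log2 CPM on TMM-scaled sizes with a prior count of 2, and the level of the selection used CPM on library totals. Positions and exonic GC content came from GENCODE on GRCh37, which held 87.4% of the identifiers. Arms were split at the longest run of undetermined bases. The GC and length correction fitted splines with 5 degrees of freedom per library on the 98.1% of tested genes with both values.

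The members and lists were chosen with earlier results of these data known. After the values were seen, 42 list entries whose known role did not match their list were removed. The lists stayed approximate. RETSAT in membrane traffic, PCYOX1 in mitochondrial proteins and GPN1 in translation remained, although their best-known roles lie elsewhere. Named were the 8 members with the smallest p in each direction, the 5 with the largest joint rise and the 5 with the largest joint fall in replicate 3, 8 genes known for their roles (1 of them is not reported here), and the most abundant member of each 10 Mb window. Floors cover counting error only, because no molecular identifiers separated PCR copies.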

Additional observations from a re-analysis of the deposited data

Results flagged for a closer look

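In 2p as a whole and in 8 of its 9 windows of 10 Mb, the shift of replicate 3 against replicates 1 and 2 had opposite signs in the 2 groups; these differences were not tested, since each rests on 1 library per group. Over all members the median log2 shift was 0.51 in GFP and -0.072 in POU5F1B cells. Opposite signs were not particular to 2p: the medians were 0.06 and -0.009 over all 8255 genes of the same level. They also differed in sign on 2q (0.18 and -0.10), 21q (0.28 and -0.080) and 7p (0.34 and -0.025). From the tip toward the centromere, the window values in GFP and POU5F1B cells were 0.36 and -0.056 at 0 to 10 Mb, 0.86 and -0.11 at 10 to 20 Mb, 0.36 and -0.0058 at 20 to 30 Mb, and 0.77 and -0.17 at 30 to 40 Mb. Further along they were 0.72 and -0.20 at 40 to 50 Mb, 1.20 and -0.018 at 50 to 60 Mb, 0.70 and -0.12 at 60 to 70 Mb, and 0.31 and -0.029 at 80 to 90 Mb. Several POU5F1B values were close to 0. At 20 to 30 Mb 26 of 53 members lay above 0, and the value at 50 to 60 Mb was 0.0087 after the GC and length correction.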

How the results depend on the processing

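The members' median log2 fold change over 6 libraries (0.23) stayed between 0.16 and 0.45 in every alternative run, and the medians of pairs 1 and 2 and of GFP replicate 3 kept their sign. Counts of calls did not hold. Over all genes, 0 calls became 232 with DESeq2, 4 with a filter of 1 count in total, 1 with the replicate block, 1194 with replicates 1 and 2 only, 1 with the GC and length correction and 1 when it was joined to the replicate block, and 0 to 595 when 1 library was left out (595 without GFP replicate 3). Member calls became 2 with DESeq2, 7 with replicates 1 and 2 only and 0 to 2 with 1 library left out. Members higher at an unadjusted p below 0.05 (48) became 174 with replicates 1 and 2 only, 85 with the GC and length correction, 77 with that correction and the replicate block, and 14 to 155 with 1 library left out; members lower (2) became 8 with replicates 1 and 2 only and 1 to 7 with 1 library left out. Members without overlap and higher (60) became 91 with the correction. In these alternative runs the member counts at an unadjusted p and without overlap were not set beside a share over all genes. Some single genes near 0 changed sign. With edgeR and DESeq2, ANXA4 was -0.0399 and -0.0312 and LRPPRC -0.0452 and -0.0302. With replicates 1 and 2 only, PELI1 was 0.26, SOS1 0.24 and XPO1 0.39. With the correction and with the correction plus the replicate block, CDC42EP3 was 0.012 and 0.0085, PELI1 0.064 and 0.011, SOS1 0.15 and 0.12, and XPO1 0.30 and 0.30, and ODC1 was -0.0029 with both. XPO1 was 0.011 with total counts. Leaving out 1 library gave ranges of -0.10 to 0.55 for MXD1, -0.31 to 0.12 for TET3, -0.37 to 0.47 for PELI1, -0.14 to 0.37 for ANXA4, -0.49 to 0.0048 for RASGRP3, -0.0918 to 0.45 for CRIM1, -0.0396 to 0.37 for ODC1, -0.59 to 0.20 for SOS1, -0.16 to 0.25 for XPO1 and -0.16 to 0.67 for LRPPRC. The cause was not tested. With the replicate block the members' median was 0.21. Same-numbered libraries deviated together only weakly (correlations of 0.24, 0.09 and 0.17). Deviations from a mean of 3 libraries depend on each other, and 1 GFP library stood apart. These values therefore cannot settle whether the numbers pair the samples. With 3 libraries per group and 1 GFP library apart from the others, small shifts of single genes could not be resolved.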
